A study of Homo sapiens with 12 samples.

Results

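The IFIT and IFITM genes, 7 antiviral genes of 2 families, were taken from the gene count table by symbol: IFIT1, IFIT2, IFIT3 and IFIT5, which lie within 137308 bp on chromosome 10, and IFITM1, IFITM2 and IFITM3, which lie within 19907 bp on chromosome 11. They are 7 of 58735 gene rows, and all 7 were among the 17829 genes tested. The genes were followed in A549, an established human lung adenocarcinoma line that grows attached, with and without GFI1. GFI1 is a zinc-finger protein, mostly a transcriptional repressor, that acts in blood cell development. Control and GFI1-expressing A549 cells grew in RPMI1640 with serum on treated plates (attached), or were kept from attaching for 48 hours on ultra-low attachment plates (floating), which gave 4 groups of 3 libraries. GFI1 came from a lentiviral vector with a human PGK promoter that also encodes GFP, and sorted GFP+ cells were sequenced. The sources do not say whether the sequenced control cells carried an empty vector, although the study used empty-vector A549 controls in mice. Nor do they say whether replicates were separate cultures, so the p-values measure only the spread between these libraries, which may be technical. Differences between GFI1 and control cells therefore include any effect of transduction and sorting that the controls lacked, and the 2 cannot be told apart.

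IFIT proteins (interferon-induced proteins with tetratricopeptide repeats) bind foreign RNA in the cytosol. IFIT1 holds RNA whose cap lacks ribose methylation, IFIT3 stabilizes IFIT1, IFIT2 joins them in a complex, and IFIT5 acts mainly alone on uncapped RNA ends. IFITM proteins (interferon-induced transmembrane proteins) sit in membranes and hinder the fusion of enveloped viruses, IFITM1 mostly at the cell surface and IFITM2 and IFITM3 mostly in endosomes. Interferons act through receptors and kinases of the JAK family to transcription factor complexes. These complexes bind the interferon-stimulated response element (ISRE) or, after interferon gamma, the gamma-activated site. Lung epithelial cells carry these receptors and are a first barrier to respiratory viruses.

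The promoters were read because the 7 genes are known as interferon targets. The RefSeq promoter table (build GRCh38.p14) held 5 of the 7 members, IFIT1, IFIT3, IFIT5, IFITM1 and IFITM3, in 6 windows of 300 bases, since IFIT3 has 2 starts. Every one of the 6 windows held the letters GAAANNGAAA, the ISRE core, on one strand or the other, against 3.57% of all 35116 windows in the table. The following 210 bases run from 200 before the transcription start to 10 after its first position, 5′ to 3′ on the strand of the gene, with each ISRE core in capitals.
IFIT1, chr10:89392423-89392632, plus strand: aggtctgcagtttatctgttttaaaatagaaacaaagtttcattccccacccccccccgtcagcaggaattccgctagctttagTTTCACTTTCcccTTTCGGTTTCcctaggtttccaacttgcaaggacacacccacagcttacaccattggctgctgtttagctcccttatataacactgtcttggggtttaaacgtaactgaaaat
IFIT3 start 1, chr10:89327797-89328006, plus strand: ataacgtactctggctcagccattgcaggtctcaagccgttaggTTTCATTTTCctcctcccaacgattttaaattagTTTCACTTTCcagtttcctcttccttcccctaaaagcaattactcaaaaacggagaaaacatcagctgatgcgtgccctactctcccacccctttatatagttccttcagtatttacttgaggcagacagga
IFIT3 start 2, chr10:89332329-89332538, plus strand: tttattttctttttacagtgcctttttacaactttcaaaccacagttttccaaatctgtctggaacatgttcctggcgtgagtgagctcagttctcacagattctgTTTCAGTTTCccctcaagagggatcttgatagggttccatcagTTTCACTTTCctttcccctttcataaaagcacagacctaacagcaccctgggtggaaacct
IFIT5, chr10:89414368-89414577, plus strand: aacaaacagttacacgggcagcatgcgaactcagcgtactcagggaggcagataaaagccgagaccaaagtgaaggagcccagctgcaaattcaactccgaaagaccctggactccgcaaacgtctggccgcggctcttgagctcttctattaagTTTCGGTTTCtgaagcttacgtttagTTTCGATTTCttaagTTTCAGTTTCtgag
IFITM1, chr11:313840-314049, plus strand: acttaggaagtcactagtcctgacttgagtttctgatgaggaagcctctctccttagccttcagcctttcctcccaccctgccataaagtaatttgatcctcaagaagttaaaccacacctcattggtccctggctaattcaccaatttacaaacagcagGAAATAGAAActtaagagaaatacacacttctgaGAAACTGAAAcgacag
IFITM3, chr11:320851-321060, minus strand: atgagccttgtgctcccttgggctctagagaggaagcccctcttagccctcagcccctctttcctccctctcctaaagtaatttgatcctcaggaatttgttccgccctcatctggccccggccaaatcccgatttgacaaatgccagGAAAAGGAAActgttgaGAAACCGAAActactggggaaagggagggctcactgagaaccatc
IFIT5 held 3 cores and the other windows 2 each. In the IFIT windows the cores were read on the opposite strand. They began between 156 and 51 bases before the start in IFIT1 and IFIT3, and 45, 19 and 4 bases before it in IFIT5. In IFITM1 and IFITM3 the cores were read on the strand of the gene, and they began 40 and 6 bases before the start of IFITM1 and 52 and 35 bases before that of IFITM3. The gamma-activated site TTCNNNGAA was found only in the IFITM1 window among these 6, beginning 12 bases before the start and overlapping the second ISRE core there, against 7.66% of all windows. TATAAA, in either orientation, was present only in the window of the first IFIT3 start (11.5% of all windows). The GFI1 core AATC, 4 bases long, was present in all 6 windows, as it was in 69.0% of all windows. These matches describe letters and are no evidence of binding.

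**Figure D1:**
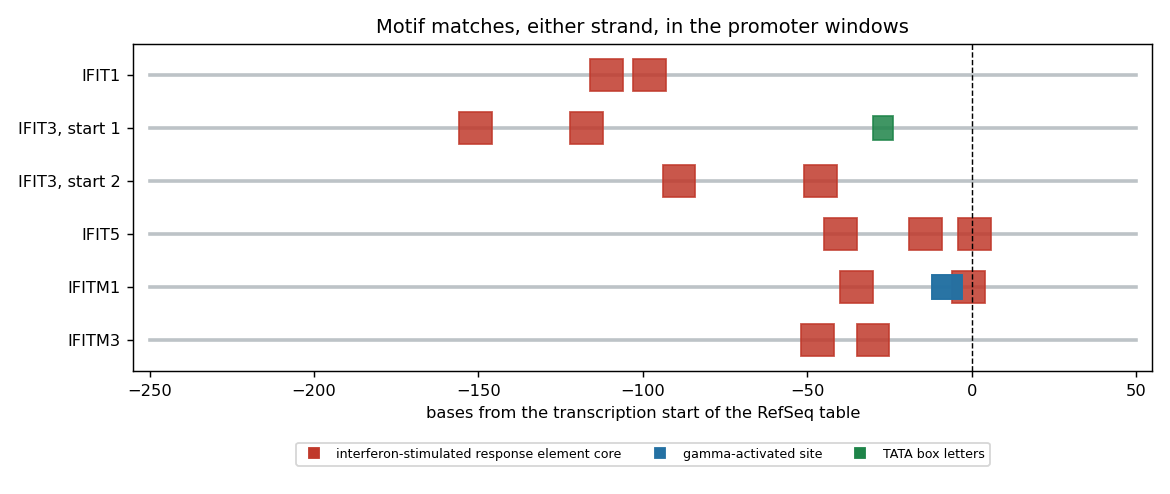
Positions of motif matches, in bases from the transcription start (dashed line), in the 6 promoter windows of 5 members. Red boxes are ISRE cores, present in every window, the blue box is the gamma-activated site of IFITM1 and the green box the TATA letters of the first IFIT3 start.

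Total counts ran from 17014188 to 20748677 per library. GFI1 itself had 4 to 12 counts in the control libraries and 5154 to 12796 in the GFI1 libraries, so every library matched that part of its label. Of 10 markers of lung epithelial carcinoma cells, 8 were tested. KRT8 had at least 25961 counts in every library, while the surfactant genes SFTPB and SFTPC had at most 9 and 14. The summed level of the 10 markers fell from between 10375 and 10976 CPM (counts relative to the TMM-scaled library total) in attached control cells to between 4219 and 4336 in attached GFI1 cells, and from between 6522 and 6932 to between 3041 and 3411 in floating cells. That sum mostly follows KRT8, KRT18 and KRT7, at 5761, 2667 and 2074 CPM in attached control cells. Of the 8 tested, 5 were lower and 2 higher with GFI1 in attached cells, and 5 and 1 in floating cells. CDH1 was at -4.22 ± 0.07 and -4.42 ± 0.08 (log2 fold change ± SE), and NKX2-1 (2 to 36 counts) at 1.93 ± 0.55 and 2.23 ± 0.45. The blood cell markers PTPRC, CD3E and SPN had at most 1 count in every library, while CD14 had 73 to 229 and ITGAM 5 to 20 counts. CD14 was at 5.36 ± 1.47, 4.48 ± 0.43, 12.3 ± 2.0 and 6.93 ± 0.49 CPM (SD, n = 3) in attached control, attached GFI1, floating control and floating GFI1 cells. CD14 and ITGAM were both lower with GFI1 in floating cells (-0.83 ± 0.15 and -1.58 ± 0.38 on the log2 scale), and CD14 was higher with suspension in control cells (1.195 ± 0.153). Of 4 endothelial markers, 2 were tested, CDH5 and VWF, and both were higher with GFI1 in both conditions. CDH5 had 1 to 2 counts in attached control and 52 to 85 in attached GFI1 libraries. In floating libraries it had 1 to 3 and 65 to 89 counts. VWF had 0 to 2 counts in attached control and 16 to 18 in attached GFI1 libraries, and was at 2.56 ± 0.61 in floating cells. KDR had at most 1 count. The summed level of the 4 was 0.108 to 0.344 CPM in attached control and 3.55 to 5.20 in attached GFI1 cells. It was 0.283 to 0.661 in floating control and 4.95 to 5.51 in floating GFI1 cells. The 4 fibroblast markers, of which THY1 had at most 3 counts, summed to 13.0 to 15.3, 9.82 to 10.8, 9.22 to 10.7 and 7.27 to 9.47 CPM in the same order. Among them COL1A1 was lower with GFI1 (-1.03 ± 0.11 in attached and -1.41 ± 0.13 in floating cells). PDGFRB was higher, with 1 to 3 counts in attached control and 39 to 50 in attached GFI1 libraries, and by 3.42 ± 0.39 in floating cells. COL3A1 was at 0.54 ± 0.28 in attached and 1.75 ± 0.30 in floating cells. These marker levels moved with GFI1 beside the member genes, and their part in the results was not tested. Floating GFI1 replicates 2 and 3 were the least alike of the replicate pairs, with a chi-square per gene of 11.4 against 1.99 to 4.84 for the other pairs.

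At baseline the members differed in level, and those of the 2 families were interleaved below IFITM2. On the scale of CPM per kilobase of deposited gene length, which allows levels of different genes to be set side by side, IFITM2 led in attached control cells with 50.1 ± 3.0 (SD, n = 3 here and below). IFITM3 followed at 7.72 ± 0.73 and IFIT5 at 6.64 ± 0.22, and the ranges of these 2 did not overlap. IFIT3 (2.32 ± 0.31) and IFITM1 (2.17 ± 0.37) overlapped in their libraries, as did IFIT1 (1.47 ± 0.19) and IFIT2 (1.19 ± 0.19). In attached GFI1 cells the order was IFITM2 (84.9 ± 1.3), IFITM1 (44.4 ± 0.9), IFITM3 (29.5 ± 0.8) and IFIT3 (25.3 ± 1.4), whose ranges did not overlap one another. Below them, IFIT1 (11.4 ± 0.6), IFIT5 (10.3 ± 1.0) and IFIT2 (10.2 ± 0.6) followed, and IFIT5 overlapped both IFIT1 and IFIT2, which did not overlap each other. In floating control cells IFITM2 was at 58.9 ± 3.5, IFITM3 at 10.5 ± 1.0, IFITM1 at 6.65 ± 0.55 and IFIT5 at 6.01 ± 0.26 CPM per kilobase, the last 2 overlapping. IFIT3 (2.96 ± 0.86), IFIT2 (1.88 ± 0.01) and IFIT1 (1.63 ± 0.34) came last in floating control cells, with IFIT1 overlapping IFIT2. In floating GFI1 cells IFITM2 was at 91.3 ± 4.1, IFITM1 at 54.7 ± 7.8, IFITM3 at 30.6 ± 2.8 and IFIT3 at 21.3 ± 2.4, while IFIT2 (9.79 ± 0.93), IFIT1 (9.38 ± 2.55) and IFIT5 (9.13 ± 1.64) overlapped. The length used matters for these levels: with exons merged from GENCODE v44, 16 of the 28 levels moved by more than their SD, IFIT3 to 13.2 and IFITM3 to 14.0 CPM per kilobase in attached GFI1 cells. The orders and separations above therefore hold for the deposited lengths only. By the v44 lengths IFIT5 lay above IFITM3 in attached control cells, and the ranges of IFITM3 and IFIT3 overlapped in attached GFI1 cells.

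The first comparison was between GFI1-expressing and control cells. Members and lists were chosen with earlier results of these data known, so their counts beside the shares of all genes are descriptive. In attached cells all 7 members were higher with GFI1, by log2 fold changes from 0.64 (IFIT5) to 4.36 (IFITM1), with a median of 2.96 over the 7 members against -0.01 over all genes tested. With p-values of the edgeR quasi-likelihood test adjusted over all genes (Benjamini-Hochberg), 7 of 7 were past the threshold of 0.05 in the upward direction, against 29.5% of all tested genes. For each of the 7 every GFI1 library lay above every control library, and 67.0% of all genes were likewise without overlap in either direction. In floating cells the 7 members were again higher with GFI1, with a median log2 fold change of 2.38 against 0.01 over all genes. There 7 of 7 were past the threshold upward against 29.3% of all genes, and 7 of 7 did not overlap against 64.4%. In these bulk libraries fewer expressing cells and less RNA per cell cannot be told apart.

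**Figure D2:**
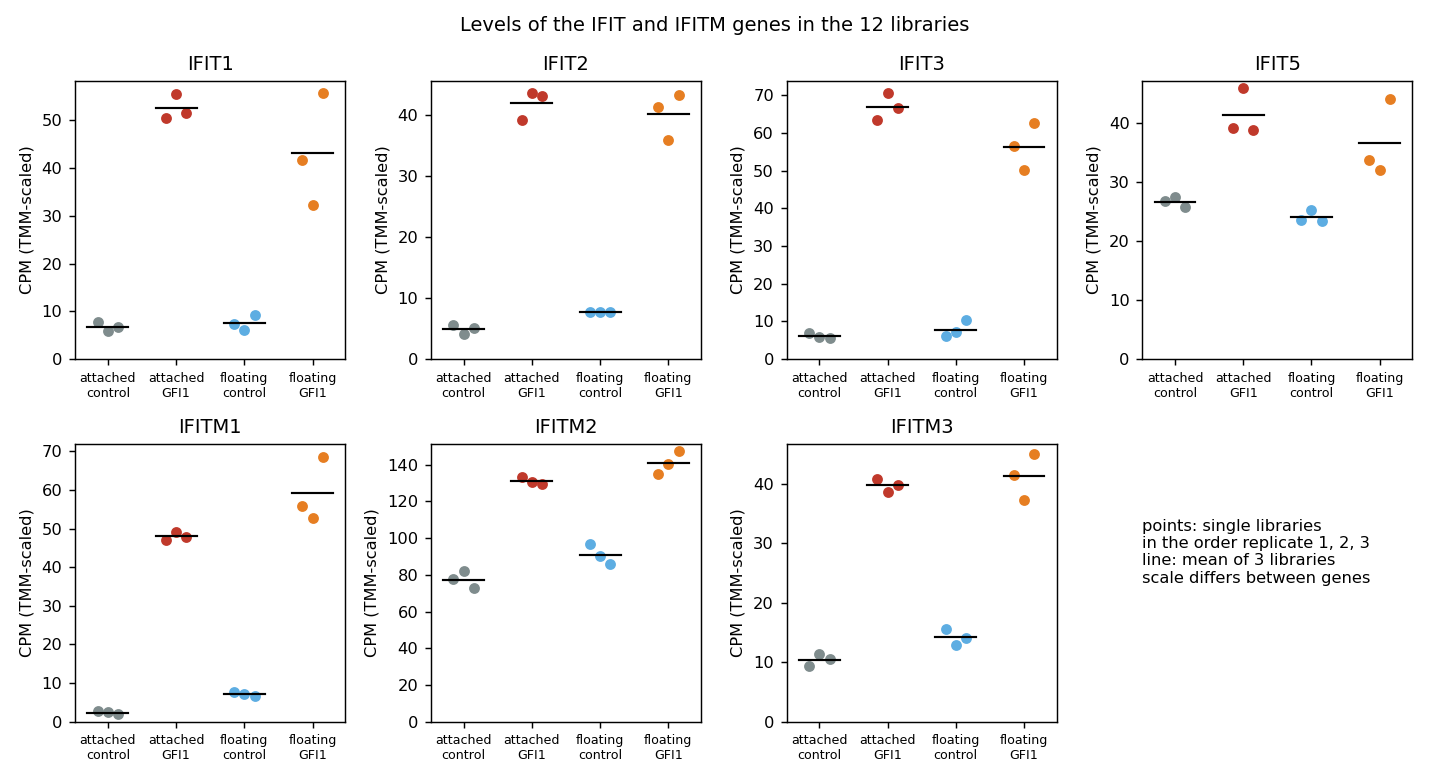
CPM (TMM-scaled, linear axis from 0) of each member in the 12 libraries; points are libraries in the order of replicates 1 to 3 and lines are group means. In every panel the GFI1 libraries lie above the control libraries of the same culture condition, most widely for IFITM1 and least for IFIT5 and IFITM2.

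IFIT1, the sensor of incompletely methylated caps, had 7.74, 5.97 and 6.66 CPM in the attached control libraries (replicates 1 to 3) and 50.5, 55.6 and 51.5 in the attached GFI1 libraries. In floating cells it had 7.35, 6.02 and 9.12 CPM in control and 41.6, 32.4 and 55.8 in GFI1 libraries. The GFI1 libraries were all higher, and those of floating cells were the most scattered, with replicate 3 at the level of the attached GFI1 libraries. IFIT1 rose by 2.96 ± 0.15 (log2 fold change ± SE, 7.76-fold, adjusted p 6.77e-15) in attached cells and by 2.53 ± 0.15 (5.77-fold, adjusted p 1.80e-13) in floating cells, both by edgeR. IFIT3, the stabilizing partner of IFIT1, had 7.03, 5.92 and 5.45 CPM in attached control and 63.3, 70.5 and 66.5 in attached GFI1 libraries. In floating cells IFIT3 had 5.99, 7.10 and 10.4 CPM in control and 56.5, 50.01 and 62.6 in GFI1 libraries. Replicate 3 was the highest of the floating libraries in both groups, and no GFI1 library came near a control library. IFIT3 rose by 3.45 ± 0.12 (10.9-fold, adjusted p 1.55e-18) in attached and by 2.84 ± 0.12 (7.18-fold, adjusted p 5.31e-17) in floating cells by edgeR.

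IFIT2, which joins the complex, had 5.54, 4.02 and 5.05 CPM in attached control and 39.0, 43.5 and 43.1 in attached GFI1 libraries. In floating cells IFIT2 had 7.76, 7.71 and 7.65 CPM in control and 41.3, 35.9 and 43.3 in GFI1 libraries. The floating control libraries were nearly alike and lay above all attached control libraries. IFIT2 rose by 3.11 ± 0.10 (8.63-fold, adjusted p 3.57e-19) in attached and by 2.38 ± 0.09 (5.21-fold, adjusted p 2.22e-17) in floating cells by edgeR. IFIT5, the member that acts on its own, began from a higher level than IFIT1, IFIT2 and IFIT3 per kilobase and changed less. It had 26.7, 27.5 and 25.7 CPM in attached control and 39.2, 46.0 and 38.8 in attached GFI1 libraries. In floating cells IFIT5 had 23.6, 25.3 and 23.4 CPM in control and 33.8, 32.0 and 44.2 in GFI1 libraries. The lowest floating GFI1 library was thus still above every control library. IFIT5 rose by 0.64 ± 0.09 (1.55-fold, adjusted p 1.23e-06) and 0.61 ± 0.09 (1.52-fold, adjusted p 3.96e-06) in attached and floating cells by edgeR.

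IFITM1, the member found mostly at the cell surface, had the largest change of the 7 in both conditions. Its attached control libraries held 45, 45 and 33 counts, or 2.68, 2.44 and 1.89 CPM, and its attached GFI1 libraries 47.0, 49.0 and 47.9 CPM. In floating cells IFITM1 had 7.76, 7.22 and 6.57 CPM in control and 55.9, 52.8 and 68.6 in GFI1 libraries. Each group was apart from the other 3 groups. IFITM1 rose by 4.36 ± 0.12 (20.5-fold, adjusted p 2.07e-20) in attached and by 3.04 ± 0.10 (8.24-fold, adjusted p 4.43e-19) in floating cells by edgeR, which ranked it 88th and 179th from the top of 17829 genes by fold change. IFITM3, an endosomal member, had 9.35, 11.3 and 10.6 CPM in attached control and 40.8, 38.6 and 39.8 in attached GFI1 libraries. In floating cells IFITM3 had 15.6, 12.9 and 14.0 CPM in control and 41.5, 37.3 and 44.9 in GFI1 libraries. The floating and attached GFI1 libraries overlapped, whereas floating control libraries were all above attached control ones. IFITM3 rose by 1.93 ± 0.09 (3.81-fold, adjusted p 3.57e-16) in attached and by 1.54 ± 0.08 (2.91-fold, adjusted p 1.52e-14) in floating cells by edgeR.

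IFITM2, the other endosomal member and the most abundant of the 7 per kilobase, had 77.7, 81.8 and 72.7 CPM in attached control and 133.2, 130.7 and 129.2 in attached GFI1 libraries. In floating cells IFITM2 had 96.8, 90.1 and 86.0 CPM in control and 135.0, 140.2 and 147.6 in GFI1 libraries. Groups did not overlap, and the floating libraries of each genotype were above the attached ones. IFITM2 rose by 0.76 ± 0.05 (1.69-fold, adjusted p 1.54e-12) in attached and by 0.63 ± 0.05 (1.55-fold, adjusted p 4.60e-11) in floating cells by edgeR. The changes of all 7 members with GFI1 kept their direction and their side of the threshold under every alternative fit, in both conditions, while a required fold change of at least 2 left 5 of 7, without IFIT5 and IFITM2. Scaling by library size alone put the median of all genes at 0.14 on the log2 scale in both comparisons. Of all genes past the threshold, the share of higher ones rose from 47.4% to 61.5% in attached cells. In floating cells it rose from 48.5% to 61.4%. Under that scaling IFIT5, which changed least, was at 0.78 (attached) and 0.74 (floating).

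**Figure D3:**
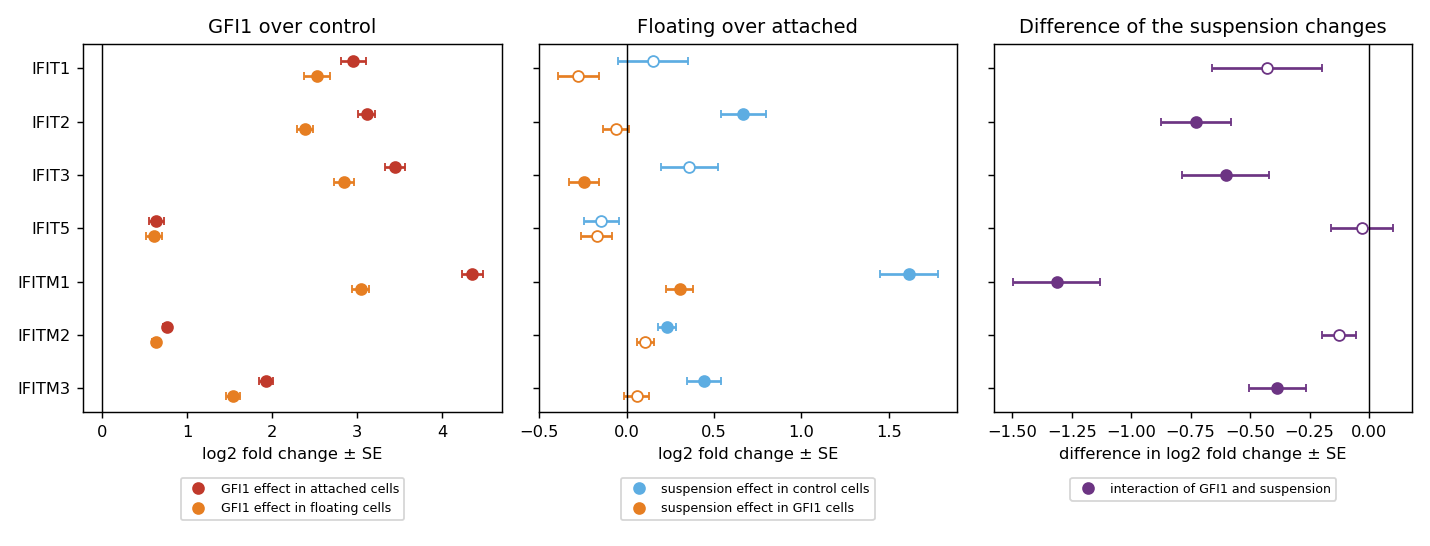
Log2 fold changes with standard errors of the 7 members for GFI1 over control (left), floating over attached (middle) and the difference between the suspension changes of GFI1 and control cells (right); filled points are past the adjusted p of 0.05 and open points are not. IFIT5 and IFITM2 sit near 0.6 to 0.8 on the left, and the suspension change of IFITM1 is 1.62 in control and 0.30 in GFI1 cells.

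Because the members changed by different amounts, the make-up of each family differed with GFI1. As a share of the summed CPM per kilobase of the 4 IFIT genes, IFIT5 made up 57.2% ± 3.2 in attached control cells and 18.0% ± 0.9 in attached GFI1 cells (SD, n = 3). IFIT3 took 19.9% ± 1.5 in attached control and 44.2% ± 0.3 in attached GFI1 cells. Library ranges of these shares did not overlap between control and GFI1 cells. IFITM2 made up 83.5% ± 0.6 of the IFITM sum in attached control and 53.5% ± 0.4 in attached GFI1 cells, while IFITM1 was at 3.60% ± 0.53 and 27.98% ± 0.73. In floating cells the share of IFIT5 was 48.4% ± 4.8 in control and 18.4% ± 1.0 in GFI1 cells, and that of IFITM1 was 8.74% ± 0.28 and 30.9% ± 1.9. The summed level of the 4 IFIT genes was 11.6 ± 0.6 CPM per kilobase in attached control and 57.2 ± 3.4 in attached GFI1 cells, and 12.5 ± 1.0 and 49.6 ± 7.4 in floating cells. The IFITM sum was 60.0 ± 3.5 and 158.8 ± 1.3 in attached cells and 76.1 ± 4.8 and 176.6 ± 13.8 in floating cells. With GENCODE v44 lengths IFIT5 was at 61.6% and 21.6% and IFIT3 at 12.2% and 30.2% in attached control and GFI1 cells. By the same lengths IFITM2 was at 90.5% and 65.6% and IFITM1 at 2.63% and 23.2% of the IFITM sum. The IFITM shares also depend on how fragments were divided between IFITM1 and IFITM2, whose deposited spans overlap.

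**Figure D4:**
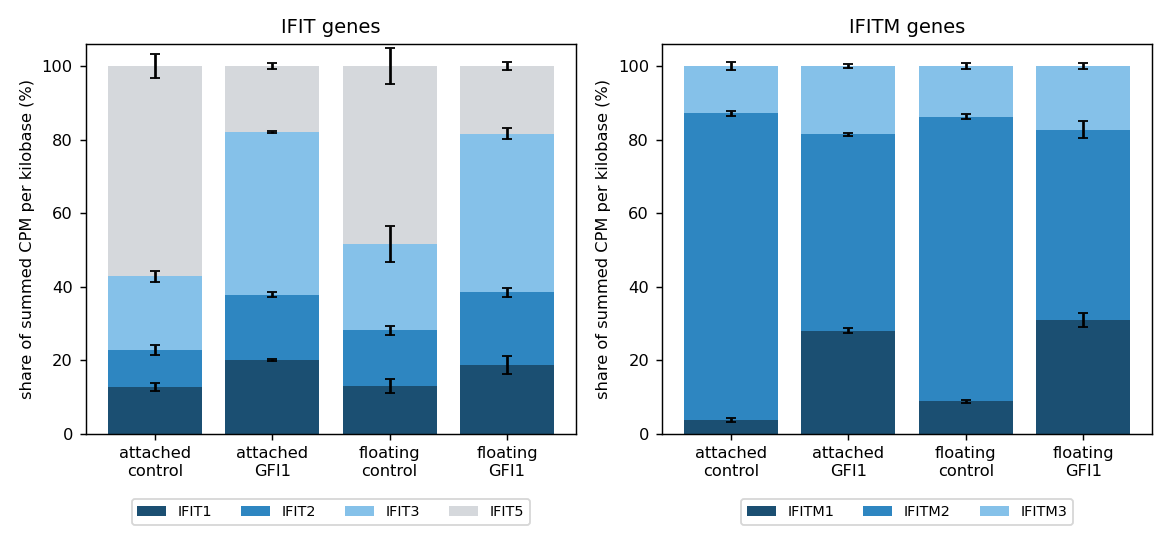
Share (%) of each gene in the summed CPM per kilobase of its family, as means of 3 libraries with SD bars, by group. Segments are stacked and each bar marks the SD of the segment under it. IFIT5 and IFITM2 have the largest shares of their families in control cells, and IFIT3 and IFITM1 take larger shares in GFI1 cells.

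The next comparison was between floating and attached cells of the same genotype. In control cells 4 of the 7 members were higher after 48 hours of suspension, all 3 IFITM genes and IFIT2, and 0 were lower by edgeR; 19.6% of all genes were higher. IFITM1 rose by 1.62 ± 0.17 (3.07-fold, adjusted p 1.50e-08), IFIT2 by 0.67 ± 0.13 (1.59-fold, adjusted p 0.000134), IFITM3 by 0.44 ± 0.10 (1.36-fold, adjusted p 0.000722) and IFITM2 by 0.23 ± 0.05 (1.17-fold, adjusted p 0.000811). For these 4 genes, and for IFIT5 in the other direction, the floating and attached control libraries did not overlap, 5 of 7 members against 49.9% of all genes in either direction. IFIT3 (0.36 ± 0.16, adjusted p 0.0795), IFIT1 (0.15 ± 0.20, adjusted p 0.591) and IFIT5 (-0.14 ± 0.10, adjusted p 0.263) did not pass. The median over the members was 0.36, against 0.01 over all genes. IFIT3 passed in 3 of 21 alternatives, among them without floating control replicate 1 (0.52), without floating GFI1 replicate 2 (0.36) and in a fit that kept all libraries of these groups. It was 0.09 without floating control replicate 3.

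In GFI1 cells, IFITM1 was higher after suspension by 0.30 ± 0.08 (1.23-fold, adjusted p 0.00286) and IFIT3 was lower by 0.24 ± 0.09 on the log2 scale (1.18-fold, adjusted p 0.0334) by edgeR. These 2 of 7 members past the threshold in either direction stand against 31.3% of all genes. The other 5 did not pass: IFIT1 was at -0.28 ± 0.12 (adjusted p 0.0758), IFIT5 at -0.17 ± 0.09 (adjusted p 0.144), IFITM2 at 0.11 ± 0.05 (adjusted p 0.107), IFIT2 at -0.06 ± 0.07 and IFITM3 at 0.06 ± 0.07. The median over the members was -0.06, against 0.00 over all genes. Floating GFI1 replicate 3 bore on these values: without it IFIT1 (-0.51) and IFIT5 (-0.33) also passed as lower, and IFITM1 was at 0.18. IFIT1 passed as lower in 3 of 21 alternatives, this one included. IFIT3 lost its call without attached GFI1 replicates 2 (-0.20) or 3 (-0.24) or floating GFI1 replicates 1 (-0.26) or 2 (-0.18), with DESeq2 and with robust empirical Bayes estimates. In the floating GFI1 libraries GFI1 itself was at 544.6, 705.5 and 430.2 CPM in replicates 1 to 3, against 290.4, 294.4 and 285.6 in the attached GFI1 libraries. Within the floating GFI1 libraries IFIT1, IFIT2, IFIT3, IFIT5, IFITM1 and IFITM3 were lowest in replicate 2, which had the most GFI1, and highest in replicate 3, which had the least. These are 3 libraries with no test, and the part of the GFI1 level in the members' values was not tested.

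The difference between the suspension changes of GFI1 and control cells was then tested as an interaction, with a negative value where the change was smaller or more negative in GFI1 cells. All 7 values were negative, with a median of -0.43 against 0.00 over all genes, and 4 of 7 members were past the threshold as lower, against 6.01% of all genes. IFITM1 differed by -1.31 ± 0.18 (adjusted p 1.85e-05), IFIT2 by -0.73 ± 0.15 (adjusted p 0.00136), IFIT3 by -0.60 ± 0.18 (adjusted p 0.0328) and IFITM3 by -0.38 ± 0.12 (adjusted p 0.0419) by edgeR. The interaction is also the difference between the GFI1 effects of floating and attached cells, so for IFITM1 and IFIT2 the effect of GFI1 was smaller in floating cells. IFIT1 (-0.43 ± 0.23, adjusted p 0.278), IFITM2 (-0.13 ± 0.07, adjusted p 0.306) and IFIT5 (-0.03 ± 0.13, adjusted p 0.934) did not pass. IFITM1 and IFIT2 kept their calls under every alternative fit, though IFIT2 does not reach a fold of 2. IFIT3 lost its call without attached control replicate 2 (-0.58) or 3 (-0.52), attached GFI1 replicate 2 (-0.55) or 3 (-0.60) or floating control replicate 3 (-0.34), and IFITM3 without any 1 of 9 libraries, these being replicates 1 and 3 of attached control (-0.31 and -0.39) and of floating control (-0.31 and -0.39), all 3 attached GFI1 libraries (-0.36, -0.40 and -0.38) and floating GFI1 replicates 1 and 2 (-0.40 and -0.33). IFIT1 passed in 2 of 20 alternatives, among them without floating GFI1 replicate 3 (-0.66).

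The pathway around the members was read from lists of genes, whose counts stand against 29.5% higher and 32.8% lower of all genes in attached cells and 29.3% and 31.1% in floating cells. Of 10 interferon ligand genes, 8 had at most 3 counts in any library, with IFNB1 at no more than 2 and IFNG at 0, and only IFNA1 and IFNE were tested. Neither passed in attached cells, although IFNE (0.34 ± 0.17) passed as higher when scaled by upper quartile (0.39) or library size (0.49), and 1 ligand passed without attached control replicate 3, attached GFI1 replicate 2 or floating GFI1 replicate 1. IFNA1 (5 to 19 counts) was lower with GFI1 in floating cells (-1.16 ± 0.37). With suspension both were higher in control cells, IFNA1 by 1.26 ± 0.38 and IFNE by 0.65 ± 0.17. Of 17 genes for interferon receptors and JAK-STAT signalling, attached cells had 8 higher and 5 lower with GFI1 (median 0.13), and floating cells 11 and 4 (median 0.28). By library size alone these were 10 and 3 in attached cells and 11 and 4 in floating cells. IRF1, a transcription factor that binds interferon response elements, rose the most, by 3.11 ± 0.05 and 2.90 ± 0.05. IFNGR1, the ligand-binding chain of the interferon gamma receptor, fell the most, by 1.63 ± 0.06 and 2.11 ± 0.06. Of 11 tested genes for sensing RNA and DNA, attached cells had 6 higher and 2 lower, and floating cells 6 and 3 (medians 0.32 and 0.25). IFIH1, the sensor MDA5 of long double-stranded RNA, rose the most (3.61 ± 0.14 and 3.09 ± 0.14), while the DNA sensor genes CGAS (-0.95 ± 0.11 in attached cells) and IFI16 (-0.92 ± 0.14 in floating cells) were the lowest of those past the threshold.

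Of 31 tested genes for other antiviral effectors induced by interferon, 28 rose and 2 fell with GFI1 in attached cells (median 1.87), and 27 rose and 3 fell when floating (median 1.93), so the members changed beside most of that list. XAF1, an interferon-induced proapoptotic gene, had 0 to 1 counts in control libraries and was at 10.9 ± 0.9 CPM in attached and 8.61 ± 1.11 CPM in floating GFI1 cells, 63.5 and 49.0 times the level that 3 counts per control library would give. SLFN5, a Schlafen family gene, fell the most, by 4.89 ± 0.10 and 5.28 ± 0.08. For the interaction, 0 of the 31 were higher and 7 lower (median -0.29). Of all 17829 genes, 848 were higher and 6.01% lower, with a median of 0.00. The number of the 31 past the threshold ran from 3 to 10 over the alternative fits. ISRE cores were found in 16 of the 25 genes of this list with a promoter in the table (64%), against 4.38% of all 27305 genes. The other lists held them in 4 of 9 interferon ligands, 3 of 9 sensing genes, 2 of 6 brakes, 1 of 7 IFIT partners, 1 of 9 modifiers of IFITM proteins and 0 of 12 receptor and JAK-STAT genes.

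Of 8 brakes on interferon signalling, 6 rose and 2 fell in attached cells (median 0.81) against 5 and 2 in floating cells (median 0.65). ISG15, the ubiquitin-like modifier that also stands among the effectors, rose by 3.58 ± 0.11 and 3.34 ± 0.12, and PTPN2, a phosphatase of JAK and STAT proteins, fell by 0.73 ± 0.07 and 0.83 ± 0.07. Among 9 partners of the IFIT proteins and cap methylation enzymes, 2 rose and 3 fell in attached cells (median -0.05) against 3 and 3 in floating cells (median -0.11). By library size alone 4 rose and 2 fell in attached cells (median 0.10) against 4 and 1 in floating cells (median 0.02), so the sign of both medians depends on the scaling. CMTR1, which methylates the first nucleotide after the cap and so marks RNA as self, rose by 0.46 ± 0.06 and 0.45 ± 0.06, while the initiation factor genes EIF4G1 (-0.43 ± 0.04, attached) and EIF3E (-0.50 ± 0.05, floating) were the lowest of those past the threshold. Of 9 modifiers and partners of IFITM proteins, 0 rose and 7 fell in attached cells (median -0.22) against 1 and 7 in floating cells (median -0.22). By library size alone 2 rose and 4 fell in attached cells (median -0.08) against 1 and 3 in floating cells (median -0.09). FYN, a kinase that phosphorylates IFITM3, was the lowest of those past the threshold in attached cells (-1.41 ± 0.40, 5 to 18 counts). SETD7, a methyltransferase of IFITM3, was the lowest of those in floating cells (-1.37 ± 0.05). ZMPSTE24, a membrane protease, was the least lowered of the 7 in attached cells (-0.19 ± 0.05) and did not pass by library size alone (-0.04). ABHD16A, a depalmitoylase, was the only one higher in floating cells (0.91 ± 0.25).

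**Figure D5:**
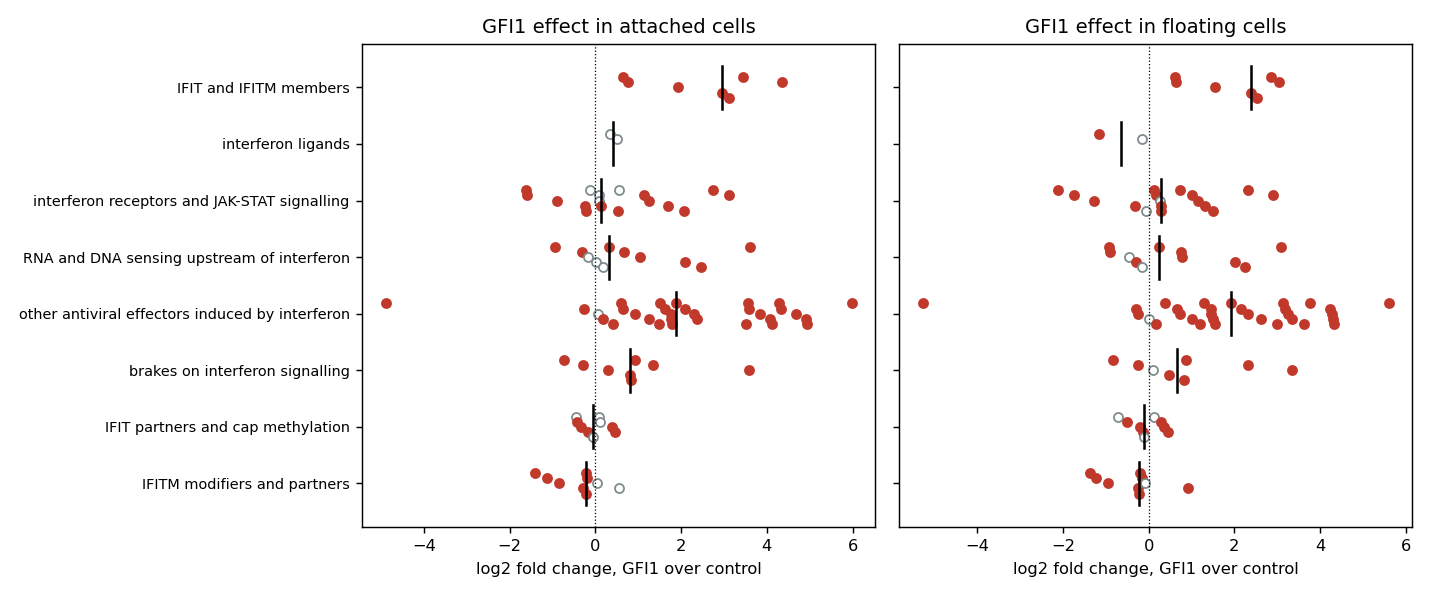
Log2 fold changes, GFI1 over control, of the 7 members and of the genes of 7 lists in attached (left) and floating (right) cells. Red points are past the adjusted p of 0.05, open points are not, black bars are medians, and XAF1 is drawn against 3 counts per control library (5.99 and 5.61). The members and the other antiviral effectors lie mostly to the right, and the modifiers of IFITM proteins mostly to the left, where by library size alone 4 in place of 7 (attached) and 3 in place of 7 (floating) were past the threshold.

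Neighbouring genes did not all move with the members. LIPA, a lysosomal lipase gene on the opposite strand whose deposited span covers IFIT1, IFIT2 and IFIT3, was higher with GFI1 in attached cells by 0.32 ± 0.05 (adjusted p 1.12e-06) and at 0.10 ± 0.04 in floating cells (adjusted p 0.0542), where it passed when scaled by upper quartile or library size. Before the IFIT cluster lie CH25H, which was not tested, FAS, the death receptor gene (0.63 ± 0.07 and 0.58 ± 0.07), and ACTA2, smooth muscle actin (0.32 ± 0.13 and 0.55 ± 0.13). Beyond IFIT5, PANK1, for a coenzyme A synthesis enzyme, was lower (-0.94 ± 0.10 and -1.04 ± 0.10), the kinesin gene KIF20B was at -0.10 ± 0.05 and -0.18 ± 0.05 (0.05 in attached cells and no longer past the threshold in floating cells by library size alone), and SLC16A12 was not tested. Around the IFITM cluster, the inflammasome gene NLRP6 had at most 29 counts and was higher (1.11 ± 0.46 and 2.06 ± 0.43), as were PGGHG (0.18 ± 0.06 and 0.42 ± 0.06) and B4GALNT4 (0.76 ± 0.05 and 0.78 ± 0.05), while the plakophilin gene PKP3 was lower (-0.18 ± 0.05, which library size scaling took below the threshold, and -0.27 ± 0.05). SIGIRR, a brake on interleukin-1 receptors, did not pass (-0.02 ± 0.07 and 0.14 ± 0.07), but changed sign in attached cells and passed in floating cells when scaled by upper quartile or library size. Of 19 other gene rows of either family, 18 had at most 7 counts, including IFIT1B and IFITM5. IFITM10, a relative from position 1732410 to 1750591 of chromosome 11, was the exception: it rose with GFI1 by 2.18 ± 0.13 and 1.56 ± 0.10 and with suspension by 1.87 ± 0.14 in control and 1.25 ± 0.09 in GFI1 cells.

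The genes whose log2 CPM, centred on the mean of each gene, lay nearest to each member across the 12 libraries were sought among 13754 protein-coding genes by root mean square distance. IFIT1 was nearest to LMNTD1, which had 0 counts in every control library, then IRF7 and PSMB10 (distances 0.23, 0.23 and 0.24 log2 units). IFIT2 was nearest to RASSF10, SYTL2 and SMIM5 (0.13, 0.14 and 0.16). IFIT3 was nearest to IFIH1 (0.12), then CD274, which encodes the immune checkpoint ligand PD-L1 (0.21), and PLPP3 (0.23). IFIT5 was nearest to EIF2AK2, the RNA-activated kinase PKR (0.08), PBRM1 (0.09) and the RNA editing gene ADAR (0.10). IFITM1 was nearest to ITGA10 (0.15), GALNT9 (0.21) and HLA-B (0.25), IFITM2 to SRC (0.06), ZER1 (0.07) and MAT2A (0.07), and IFITM3 to the antibody receptor gene TRIM21 (0.12), NFAT5 (0.14) and SSBP2 (0.14). Among the members, IFIT1, IFIT2 and IFIT3 lay within 0.27 to 0.32 of one another, IFIT5 was closest to IFITM2 (0.20) and IFITM1 was 1.66 from IFIT5. The order rests on the measure, since ranking by the Spearman coefficient gave 0 of the same 3 genes for each member.

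The positions and the counting set limits on single members. In GRCh38 the table places IFIT2 (ENSG00000119922) at 89283694 to 89309276, IFIT3 (ENSG00000119917) at 89327894 to 89340971, IFIT1 (ENSG00000185745) at 89392546 to 89406486 and IFIT5 (ENSG00000152778) at 89414586 to 89421001, all on the plus strand of chromosome 10. IFITM2 (ENSG00000185201) lies at 307631 to 315272 and IFITM1 (ENSG00000185885) at 313506 to 315272 on the plus strand of chromosome 11, and IFITM3 (ENSG00000142089) at 319669 to 327537 on the minus strand. The deposited span of IFITM1 is wholly inside that of IFITM2, 1767 bp on the same strand, so how fragments were divided between IFITM1 and IFITM2 depends on a counting rule that is not given in the sources used here. Antisense RNAs over IFITM3 were also higher with GFI1. AC136475.1 (1.80 ± 0.23 and 1.26 ± 0.20, 15 to 90 counts) overlaps the span of IFITM3 but shares no exon base with it in GENCODE v44. AC136475.5 (2.29 ± 0.44 and 1.09 ± 0.36, 3 to 45 counts) shares 405 exon bases, 14.2% of those of IFITM3, and without a stated strand setting reads there cannot be told apart. Stretches of 1 transcript per member were also compared with the genome, for exact matches only and at lengths set here. No 100-base stretch occurred at another place in the genome or in the transcript of another member. Of 50-base stretches 7.04% of IFITM1, 9.93% of IFITM2, 2.87% of IFITM3 and 5.12% of IFIT3 did. Those shared with the transcript of another member were 7.04% of IFITM1, 5.2% of IFITM2, 0.72% of IFITM3 and 0% of IFIT3. Near matches were not sought.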

How the data were processed

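RNA-seq of 12 A549 libraries was deposited as 1 table of raw counts per gene, which the authors made from reads aligned to hg38. Per the labels Bowtie2 and HTSeq were used, whereas the methods of the study name Hisat2 and featureCounts. The strand setting, the handling of overlapping genes and the annotation release are not given in the sources used here. Groups were taken from the labels. Genes were filtered with filterByExpr (minimum count 10, minimum total 15), scaled by TMM and fitted over all 4 groups with edgeR 4.0.16 (R 4.3.3, limma 3.58.1) by its quasi-likelihood test. P-values were adjusted over all 17829 genes by Benjamini-Hochberg with a threshold of 0.05. The fit was also run on simulated counts in which far fewer genes changed than here, and no result rests on that run. Comparisons share libraries. Named genes were the 7 members, the lowest and highest past the threshold of each list, the nearest 3 genes beside each cluster and the 3 nearest in pattern. Members and lists were chosen with earlier results of these data known. Alternatives were DESeq2 1.42.0, other scalings and filters, robust estimation, a replicate block, fewer groups, a fold of 2, other gene lengths and leaving out each library. A fold against a group near 0 used 3 counts per library as a floor. Some single genes of the lists are not reported here.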

Additional observations from a re-analysis of the deposited data

Results flagged for a closer look

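The suspension change differed between GFI1 and control cells for 4 members, by the test of that difference itself with edgeR. It differed by -1.31 on the log2 scale for IFITM1, which rose by 1.62 in control and by 0.30 in GFI1 cells. It differed by -0.73 for IFIT2 (0.67 in control and -0.06 in GFI1 cells), by -0.60 for IFIT3 (0.36 and -0.24) and by -0.38 for IFITM3 (0.44 and 0.06). The calls of IFIT3 and IFITM3 were lost when single libraries were left out (5 libraries for IFIT3 and 9 for IFITM3), and that of IFIT3 also with DESeq2 (-0.61, adjusted p 0.118) and with robust estimation (-0.60, adjusted p 0.167).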

How the results depend on the processing

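The direction and call of each member with GFI1 were the same in 147 of 147 values from alternatives in attached and in 147 of 147 in floating cells. This held for 143 of 147 values for suspension in control cells, 136 of 147 in GFI1 cells and 118 of 140 for the interaction. With a fold of at least 2, the members past the threshold numbered 1 in place of 4 for suspension in control cells, 0 in place of 2 in GFI1 cells and 1 in place of 4 for the interaction. DESeq2 and robust estimation each gave 1 for suspension in GFI1 cells. Leaving out 1 library gave 1 to 4 members for suspension in GFI1 cells and 2 to 4 for the interaction. IFIT5 reversed in the interaction without attached GFI1 replicate 2 (0.068), floating control replicate 2 (0.0092), floating GFI1 replicate 1 (0.016) or 2 (0.045), within a range of -0.19 to 0.068 over the libraries left out. IFIT1 reversed for suspension in control cells without floating control replicate 3 (range -0.019 to 0.28), and IFITM3 in GFI1 cells without floating GFI1 replicate 3 (range -0.010 to 0.11). The cause was not tested. Same-numbered libraries did not deviate together (18 pairs, r from -0.0306 to 0.0311), and 3 libraries correlated best with their own number. With a replicate block the members past the threshold were 7, 7, 4, 3 and 4 in the 5 comparisons, where IFIT1 also passed for suspension in GFI1 cells (-0.30, adjusted p 0.0249). Low counts limit IFITM1 in attached control cells, with 33 to 45 counts a library.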
